A study of Mus musculus with 22 samples.

Results

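Purkinje cells are the inhibitory output neurons of the cerebellar cortex. They hold very high levels of calcium-handling and inositol trisphosphate (IP3) signalling proteins, which serve the metabotropic glutamate response at the synapse with parallel fibers. Tsc1 encodes hamartin, which together with the Tsc2 product restrains the growth-promoting kinase complex mTORC1, so cells that lose Tsc1 run with mTORC1 active. The comparison described here set total RNA of sorted Tsc1-mutant Purkinje cells against that of sorted control Purkinje cells, and its 10 libraries (5 mutant and 5 control) were all those labelled as sorted among the 22 of the series.

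Mutants were Tsc1 fl/fl mice carrying L7Cre and L7GFP, and the strain background of all 10 libraries is labelled C57BL/6. Controls were Tsc1+/+ mice with the L7GFP reporter, and the study's descriptions differ on whether they carried L7Cre too. The L7 (Pcp2) promoter drove both the recombinase and the reporter, so both were confined to the cells in which that promoter is active. GFP-positive, propidium iodide-negative cells were sorted from papain-dissociated cerebellum of P21 or P42 animals, and the labels do not give the age of any one library. Controls 144a and 144b were labelled with 1 animal number between them. The Tsc1 locus is not among the loci that the supplementary files name, so the genotype labels were not checked on Tsc1 itself.

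The library descriptions also carry a submission number, and it was not balanced over genotype. Mutants 103, 61 and 74 belonged to MS2723, controls 144b, 45 and 48 to MS2872, and mutants 167 and 191 to MS3005 together with controls 144a and 176. Only MS3005 therefore held both genotypes. Submission and genotype cannot be told apart in the other 6 libraries. In total RNA of a sorted population, fewer cells of a type and less RNA per cell cannot be told apart either.

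Expression is given as log2(value + 1), where the value is the normalized read count of a locus in the deposited table and is close to a count of fragments. Each library rested on 43.3 to 86.3 M (mega) estimated fragments. Mutant libraries averaged 59.6 ± 13.1 M and control libraries 73.8 ± 9.21 M (SD, n = 5 libraries each), a difference of -14.2 M that did not pass an exact permutation test (two-sided p = 0.0714) but did without mutant 191 (-18.9 M, exact p = 0.0159). The 10 highest loci took 8.09% ± 1.16 of the mutant values and 6.73% ± 0.52 of the control values (SD, n = 5, exact permutation test, two-sided p = 0.0476). That difference came down to 6.45% against 5.71% (exact permutation p = 0.143) once 13 abundant loci that were listed at 0 in some libraries were left out. With 144a and 144b averaged into 1 control, the 2 depth differences were -13.0 M (exact permutation p = 0.0952) and 1.31 percentage points (exact permutation p = 0.0714).

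Of 66494 loci, 16455 had a mean of at least 5 and were tested with limma. At p under 0.01 and more than 2-fold change, 242 loci (1.47% of those tested) differed between mutant and control, 177 lower (1.08%) and 65 higher (0.395%) in mutants. None had a Benjamini-Hochberg adjusted p under 0.05. The smallest adjusted p was 0.394, a value shared by most genes described below, while 1861 loci had an unadjusted p under 0.05. Among the 177 loci with lower values, every mutant library lay below every control library at 99, and among the 65 with higher values every mutant lay above every control at 23. Over all tested loci such a separation was seen downward at 1.39% and upward at 0.766%. The split depended on the processing. With no filter on low values its direction turned, with 225 loci lower and 477 higher. With values scaled to equal library totals lower loci remained the larger part, at 153 lower and 91 higher. Of 180 loci without control 45, 51.7% were lower, and of 33 loci with submission as a term, 57.6%. Leaving out 1 library at a time gave 104 loci without mutant 61, 137 without mutant 74, 150 without mutant 103, 143 without control 144a, 161 without control 48, 431 without mutant 191 and 530 without mutant 167. The 122 loci past the thresholds without overlap became 319 without mutant 167, 258 without mutant 191 and 203 without control 176.

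The submissions divided these differences. For the 177 lower loci the median log2 difference was -1.59 over all libraries and -0.84 within MS3005, and for the 65 higher loci it was 1.35 over all libraries and 0.74 within MS3005. Over all tested loci the medians were 0.03 and -0.02. The MS3005 libraries were part of both fits, so agreement in sign between the 2 is no independent check. Within MS3005, 100 of 16519 loci (0.605%) passed the same thresholds, 56 of them lower in mutants, and 9 loci passed in both fits. Of these 16519 loci, 561 had an unadjusted p under 0.05 and 1 an adjusted p under 0.05 (limma). On simulated data the same fit called 166 unchanged loci. The simulated spread was pooled over all libraries and not taken from MS3005, so the 166 and the 100 are not like for like. With 1 locus at an adjusted p under 0.05 (limma), a call within MS3005 is not by itself evidence of a difference. The 100 became 210 without mutant 191 and 197 without control 176. Mutant 103 had the lowest of the 5 mutant values at 100 of the 177 lower loci, mutant 61 at 48 and mutant 74 at 17, whereas mutants 167 and 191 had it at 9 and 3. Over all 16455 tested loci these counts were 3639, 2580 and 2663 for mutants 103, 61 and 74, and 4370 and 3203 for mutants 167 and 191. Against that base mutants 103 and 61 were lowest more often, and mutant 74 was not.

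**Figure D1:**
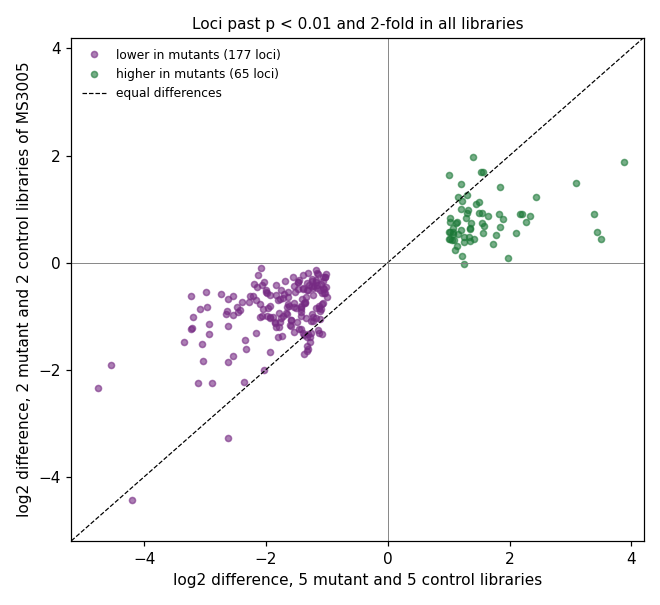
Each point is 1 of the 242 loci past the thresholds, with its mutant minus control difference over all 10 libraries on the x axis and over the 4 libraries of MS3005 on the y axis, both in log2 units. Most points lie closer to 0 on the y axis than the dashed line of equal differences, with medians of -0.84 against -1.59 for lower loci and 0.74 against 1.35 for higher loci.

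Named genes were taken from the locus names in the study's supplementary files, which cover 1375 of the tested loci. Of these, 1236 match or share a splice junction with a reference transcript, and 14.5% of those 1236 passed the thresholds, 11.1% in the downward direction. These loci were listed because they had changed in one of the study's comparisons, and the comparison of sorted cells was one of those. The share of a gene group past the thresholds is therefore to be read against 14.5%, and not as a sample of the genome. The gene lists were also chosen with earlier results of these data known. A share above 14.5% can reflect that choice and is no test of a group. Of 72 genes named below that were past the thresholds, 25 stayed past them in every fit that left out 1 library and still tested them, including Itpr1, Slc1a6, Homer3, Ddit4, Ddit4l, Kif17, Mlf1, C1s1 and Slc7a11, and the other 47 lost the call without at least 1 library. With submission as a term 1 of the 72 passed, and with 144a and 144b averaged into 1 control 41 of the 71 tested did.

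Markers of Purkinje cells separated the mutant libraries from one another. Pcp2, the gene whose promoter drove Cre and GFP (GRCm38 chr8:3623371-3625545, minus strand), stood at 12.58, 14.05 and 15.27 in mutants 103, 61 and 74, at 17.00 and 16.93 in mutants 167 and 191, and between 16.21 and 17.28 in the 5 controls. The MS2723 mutants thus lay below every control while the MS3005 mutants lay inside the control range. Pcp2 did not pass the thresholds over all libraries (log2 difference -1.79 ± 0.79 SE, limma adjusted p = 0.437). Calb1, the calcium buffer calbindin, was at 10.83, 11.23 and 12.23 in the MS2723 mutants, at 14.24 and 13.78 in the MS3005 mutants and at 13.80 to 14.53 in controls. Car8, which lowers the affinity of the IP3 receptor for its ligand, ran from 10.46 to 13.10 in MS2723 mutants, was at 15.11 and 14.93 in MS3005 mutants and from 14.99 to 15.94 in controls. Both genes again had their 3 lowest values in mutants 103, 61 and 74, in that order.

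Over the 25 tested Purkinje cell markers, 8 were lower past the thresholds and none higher, with a median log2 difference of -1.75. Within MS3005 the median was -0.33 and none passed, where 15 of the 1375 named loci did. Aldoc, which marks a subset of Purkinje cells and is also high in astroglia, had a mutant mean of 17.96 and a control mean of 17.97 (limma adjusted p = 0.994), with all 10 libraries between 17.53 and 18.36. Values for Plcb3, a phospholipase of the same Purkinje subset, were 11.89 to 12.32 in mutants and 11.82 to 12.39 in controls. Neither of these markers had its lowest values in the MS2723 mutants.

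**Figure D2:**
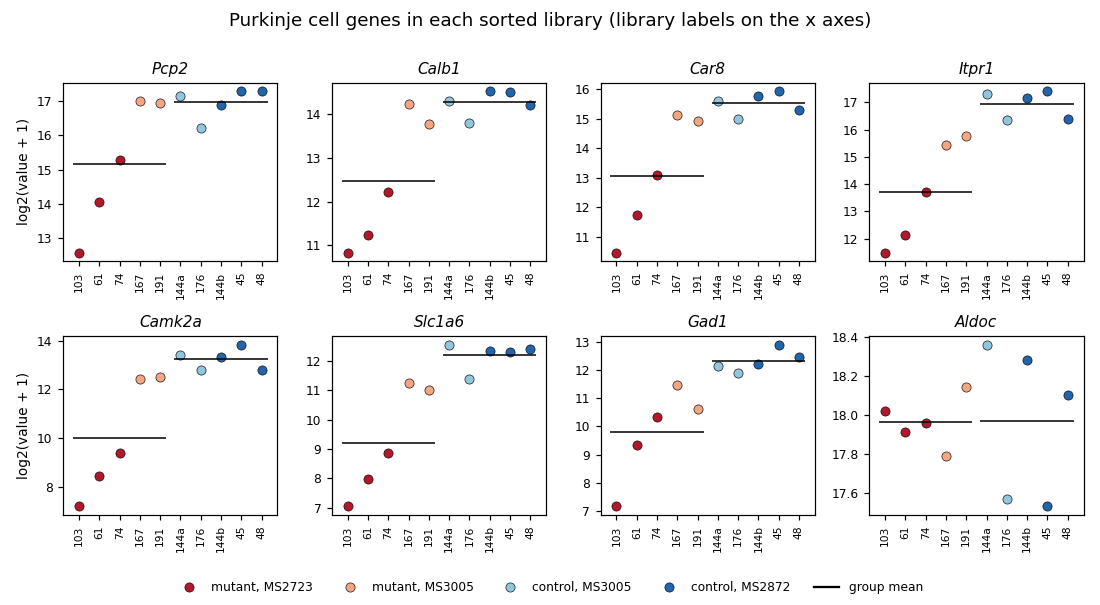
Each panel gives log2(value + 1) of 1 gene on the y axis for the 10 libraries on the x axis, coloured by genotype and submission, with a line at the mean of each genotype. Mutants 103, 61 and 74 are lowest in every panel but that of Aldoc, and mutants 167 and 191 sit near the controls for Pcp2, Calb1 and Car8 and just below them for Itpr1, Camk2a, Slc1a6 and Gad1.

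The sorted libraries also held RNA typical of other cells. Per kilobase of the matched transcript, Apoe, an apolipoprotein of astroglia and microglia, was at 16.73 to 18.26 in controls on the log2 scale, and Pcp2 at 17.11 to 18.19. In the MS2723 mutants Apoe per kilobase was at 18.11 to 18.28 against 13.48 to 16.17 for Pcp2, and in mutants 167 and 191 Apoe was at 17.69 to 17.76 and Pcp2 at 17.84 to 17.91. Apoe was the higher of the pair in all 3 MS2723 mutants, in neither MS3005 mutant and in 3 of the 5 controls (144a, 144b and 176). Gfap, the astroglial intermediate filament, lay at 11.81 to 13.30 per kilobase in controls and at 11.85 to 12.39 in mutants, and the microglial complement gene C1qc at 10.58 to 13.45 and 10.72 to 12.40. These genes were far from 0 in every library.

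The summed level of the 25 Purkinje markers was 18.38 to 18.70 in MS2723 mutants, 19.43 and 19.51 in MS3005 mutants and 19.33 to 20.11 in controls. Aldoc, which is also high in astroglia, was part of this sum. At 18.02, 17.91 and 17.96 in mutants 103, 61 and 74 it made up most of their sums, so these understate the lower levels of other Purkinje markers. The 7 tested astroglial markers ran the other way in the same mutants, with sums of 18.12 to 18.49 in MS2723 mutants, of 17.87 and 17.84 in mutants 167 and 191 and of 16.91 to 18.21 in controls. Sox2, a transcription factor of Bergmann glia and other astroglia, was at 12.48 to 13.39 in mutants and 11.26 to 12.23 in controls without overlap (log2 difference 1.01 ± 0.26 SE, limma adjusted p = 0.394). Tnc, an extracellular matrix glycoprotein of astroglia, and Fam181a were higher by 1.35 and 1.28. Gfap (-0.30) and Apoe (0.24) did not pass the thresholds, and the median over the 7 astroglial markers was 0.79 over all libraries and 0.07 within MS3005. The part of this shift in marker levels in the gene differences was not tested.

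**Figure D3:**
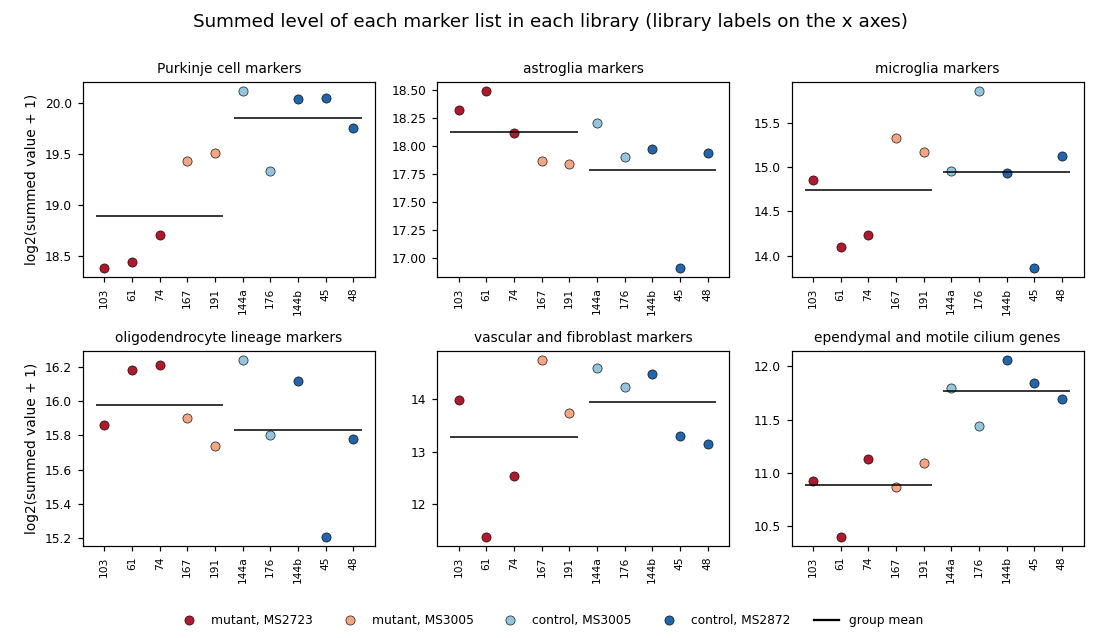
Each panel gives the summed level of the tested members of 1 marker list, as log2(summed value + 1), on the y axis for the 10 libraries on the x axis, with a line at the mean of each genotype. Purkinje markers are lowest in mutants 103, 61 and 74, at 18.38 to 18.70, where Aldoc makes up most of the sum. The summed cilium genes are lower in all 5 mutants, at 10.40 to 11.13, than in all 5 controls, at 11.44 to 12.06.

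Calcium and IP3 signalling genes formed the longest list, and 15 of its 30 tested members were lower and none higher past the thresholds, while the median difference was -1.56 (14.5% called and a median of -0.32 over the 1236 named loci). The share past the thresholds was similar among ion channel genes (9 of 17) and cilium genes (7 of 13). Itpr1, the IP3 receptor that releases calcium from the endoplasmic reticulum (GRCm38 chr6:108213096-108551109, plus strand), stood at 11.48, 12.15 and 13.71 in mutants 103, 61 and 74, at 15.45 and 15.77 in mutants 167 and 191, at 17.30 and 16.36 in controls 144a and 176 and at 17.16, 17.42 and 16.38 in controls 144b, 45 and 48. Every mutant was below every control, and the MS3005 mutants lay nearer to the controls than to the other mutants. The log2 difference was -3.21 ± 0.81 (SE, limma adjusted p = 0.394) over all libraries and -1.21 within MS3005.

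Camk2a, the calcium/calmodulin kinase subunit that modifies synapses, was at 7.21, 8.45 and 9.41 in MS2723 mutants, at 12.44 and 12.53 in MS3005 mutants and at 12.79 to 13.84 in controls. Its difference of -3.23 ± 0.99 (SE, limma adjusted p = 0.394) shrank to -0.62 within MS3005. Homer3, which ties metabotropic receptors to the IP3 receptor, had a log2 difference of -2.46, and its mutants (10.37 to 13.21) did not overlap its controls (13.36 to 15.02). Atp2a3 (-2.29), the pump that refills the endoplasmic reticulum, Inpp5a (-2.06), which degrades IP3, Dagla (-2.04), which makes the endocannabinoid 2-arachidonoylglycerol, and Dgkh (-1.47) and Dgkz (12.52 to 15.52 in mutants and 15.43 to 16.73 in controls), which consume diacylglycerol, were lower past the thresholds as well. The store-operated channel gene Orai2 had a difference of -1.84. None of the 30 passed within MS3005, but only 15 of the 1375 named loci did, so this is not particular to the list. In that submission 27 of the 30 were below 0, with a median of -0.43. Between the mutants of the 2 submissions 13 of the 30 differed past the thresholds, against 6.48% of all tested loci. The share of named loci in that contrast was not counted.

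The postsynaptic group shared this layout. Of 22 scaffold and glutamate receptor genes tested, 7 were lower and 1 higher, with a median of -1.96 over all libraries and -0.49 within MS3005. Slc1a6, the glutamate transporter of Purkinje spines, was at 7.05, 7.97 and 8.85 in MS2723 mutants, at 11.24 at most in MS3005 mutants and at 11.37 to 12.55 in controls. All mutants were below all controls, the nearest pair being mutant 167 and control 176 (log2 difference -2.97 ± 0.77 SE, limma adjusted p = 0.394). The scaffold genes Shank2 (-2.73), Shank1 (-2.39) and Grid2ip (-2.54), the spine actin bundler Espn (-2.16) and the motor gene Myo5a (-1.36), which carries endoplasmic reticulum into spines, were also lower. Shank2 overlapped between genotypes, since mutant 191 at 14.06 exceeded control 176 at 13.79.

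Grin2b, an NMDA receptor subunit, was the member that was higher. It stood at 10.09, 9.10 and 9.49 in MS2723 mutants, at 8.21 and 8.35 in MS3005 mutants, at 6.75 and 7.54 in MS3005 controls and at 7.63, 8.46 and 7.39 in the other controls. Both MS3005 mutants were above both MS3005 controls, while control 45 was above both MS3005 mutants. The mutant mean was 2.82-fold the control mean on the log2(value + 1) scale (limma SE of the log2 difference 0.42, adjusted p = 0.394), and the log2 difference within MS3005 was 1.14.

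Genes for making, loading and releasing GABA, the transmitter of Purkinje cells, were lower in 6 of 22 cases and higher in none, with a median of -1.19 over all libraries and -0.19 within MS3005. Gad1, a GABA-synthesizing enzyme, was at 7.16, 9.34 and 10.33 in MS2723 mutants, at 11.49 and 10.61 in MS3005 mutants and at 11.89 to 12.91 in controls. No mutant reached the lowest control (log2 difference -2.54 ± 0.69 SE, limma adjusted p = 0.394). The vesicular GABA transporter Slc32a1 (-3.19), Doc2b, a calcium sensor of vesicle release (-3.35), the vesicular amino acid transporter Slc6a17 (-1.89), the GABA-B receptor subunit Gabbr1 (-1.24) and the vesicle protein Vamp2 (-1.02) were lower as well. Gad2 had a difference of -2.52 but did not pass (limma adjusted p = 0.394), with 4.67 to 7.01 in MS2723 mutants, 9.97 at most in MS3005 mutants and 9.62 to 10.50 in controls.

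Ion channel genes passed in 9 of 17 cases, 8 lower and 1 higher, with a median of -1.55 over all libraries and -0.64 within MS3005. Kcna5, a voltage-gated potassium channel, had the most negative difference of the genes named here (-4.75), but it was listed at 0 in mutant 103, and control 48 at 6.60 was below mutants 167 and 191 at 6.77 and 8.09. The T-type calcium channel gene Cacna1g (-2.43) was lower, as were the potassium channel subunit genes Kcnab2 (-2.48), Kcnmb4 (-1.98) and Kcnh2 (-1.34). Cacna2d2, an auxiliary calcium channel subunit, differed in layout. It was at 8.43, 8.52 and 9.20 in MS2723 mutants and at 8.33 and 9.15 in MS3005 mutants against 9.23 to 10.89 in controls, so that the mutants of the 2 submissions covered the same range (difference between them -0.03) and the change was -1.26 over all libraries and -1.10 within MS3005. Kcna3, the channel gene that was higher, had a difference of 1.22 over all libraries and 0.13 within MS3005.

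Among 19 enzymes of phosphoinositide and diacylglycerol metabolism, 9 were lower and none higher, with a median of -1.16 over all libraries and -0.32 within MS3005. Beside the 4 already named for calcium signalling, these were the phosphatidylinositol transfer proteins Pitpnm3 (-1.98) and Pitpnm1 (-1.71), the kinase Pip5k1c (-1.17), which makes phosphatidylinositol 4,5-bisphosphate, the ceramide kinase Cerk (-1.16) and the phosphatase Inpp4a (-1.02). Pitpnm1 ran from 11.91 to 14.42 in mutants and from 14.53 to 15.56 in controls without overlap. Other Purkinje genes past the thresholds were Bean1 (-3.05), the Notch-pathway gene Dner (-1.64), the fork-head factor gene Foxp4 (-1.53) and Ebf1 (-1.65), a transcription factor gene with 8.79 to 11.21 in mutants and 11.63 to 12.44 in controls. The glucose transporter gene Slc5a1 (-3.08) and the transcripts 8430408G22Rik (-3.11) and Gm19345 (-3.24) had the remaining largest decreases.

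**Figure D4:**
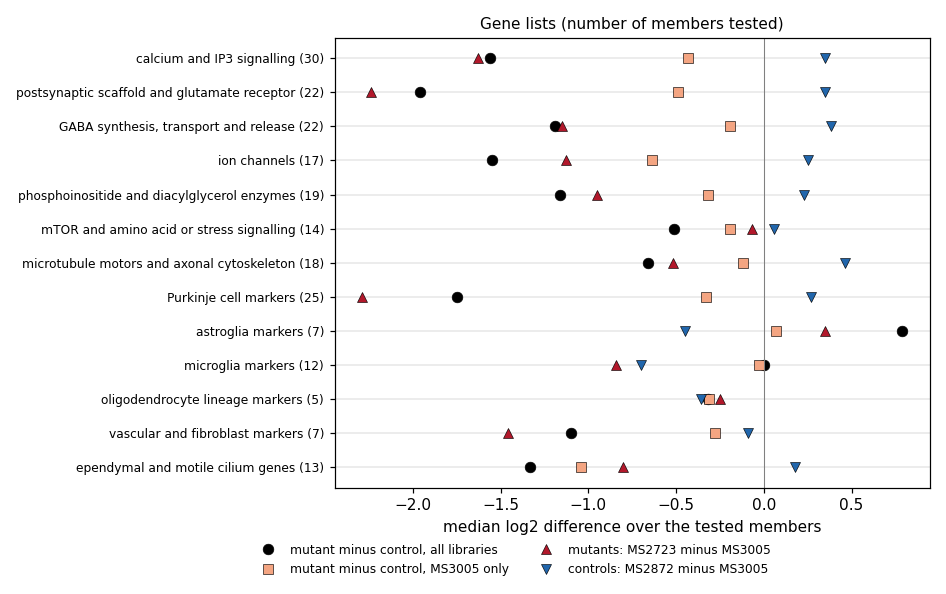
Each row is a gene list with the number of members tested, and the x axis gives the median log2 difference of those members for mutant minus control over all libraries (circles), for mutant minus control within MS3005 (squares), for the mutants of MS2723 minus those of MS3005 (upward triangles) and for the controls of MS2872 minus those of MS3005 (downward triangles). For the Purkinje markers these medians are -1.75, -0.33, -2.29 and 0.27, and for the cilium genes -1.33, -1.04, -0.80 and 0.18.

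Of the 177 lower loci, 65 had a more than 2-fold difference within MS3005 as well as over all libraries, and of the 65 higher loci 14 did. Among the genes above, these included Kcna5 (-2.35 within MS3005), Bean1 (-1.51), Doc2b (-1.49) and Itpr1 (-1.21). The trait is therefore not particular to the genes that follow. How many of all tested loci had such a difference within MS3005 was not counted. The MS3005 libraries also took part in selecting the lower and higher loci, so these counts are no evidence of their own. Ddit4, which encodes a stress-induced inhibitor of mTORC1 (GRCm38 chr10:59949669-59951834, minus strand), stood at 10.31, 10.49 and 10.53 in MS2723 mutants, at 9.79 and 10.48 in MS3005 mutants, at 12.61 and 10.95 in MS3005 controls and at 11.46, 11.48 and 11.73 in MS2872 controls. All 5 mutants lay below all 5 controls, and mutants of the 2 submissions covered nearly the same range. The difference was -1.33 ± 0.30 (SE, limma adjusted p = 0.394) over all libraries and -1.65 within MS3005. Its relative Ddit4l, likewise an mTORC1 inhibitor (chr3:137621612-137628333, plus strand), was at 5.33 to 7.31 in mutants and 7.90 to 9.01 in controls, with differences of -1.79 and -1.20. Of the 14 tested genes of mTOR, amino acid and stress signalling, 3 were lower and 1 higher past the thresholds, the third lower gene being Errfi1 (-1.05), an inhibitor of the EGF receptor, and the median was -0.51 over all libraries and -0.19 within MS3005.

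The higher gene in that list was Slc7a11, the cystine/glutamate exchanger that supplies cysteine for glutathione (chr3:49892526-50443614, minus strand). It was at 11.30, 11.59 and 11.69 in MS2723 mutants, at 11.27 and 9.80 in MS3005 mutants, at 9.19 and 9.04 in MS3005 controls and at 10.28, 9.07 and 8.86 in MS2872 controls. Only mutant 191 fell below a control, namely 144b. The log2 difference was 1.84 ± 0.40 (SE, limma adjusted p = 0.394), a 3.58-fold change, and 1.42 within MS3005.

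Genes of motile cilia and ependymal cells were lower in 6 of 13 cases and higher in 1, with a median of -1.33 over all libraries and -1.04 within MS3005. Their summed level was 10.40 to 11.13 in mutants and 11.44 to 12.06 in controls without overlap, also between the mutants (10.87 and 11.09) and controls (11.44 and 11.80) of MS3005. Such a separation was not particular to this list. The sums of calcium and IP3 genes (16.66 to 18.77 in mutants, 18.88 to 19.8 in controls) and of postsynaptic genes (15.85 to 17.46 and 17.49 to 18.48) did not overlap either. Mlf1 (chr3:67374097-67400003, plus strand) was at 6.60, 5.93 and 7.59 in MS2723 mutants, at 6.58 and 6.37 in MS3005 mutants and at 8.07, 7.86, 8.18, 8.26 and 7.12 in controls 144a, 176, 144b, 45 and 48. Mutant 74 overlapped control 48 and the other mutants were below every control, with differences of -1.28 ± 0.33 (SE, limma adjusted p = 0.394) and -1.48 within MS3005. Efcab1, a calcium-binding protein gene of cilia, was at 4.60 to 6.74 in mutants and 7.04 to 8.13 in controls. Cfap54 (-2.33), a structural gene of motile cilia, Tmem212 (-2.07), Ak7 (-1.94), an adenylate kinase gene of ependymal cilia, and Ankrd45 (-1.33) were lower, and Spata1 was higher by 1.25, with a difference of -0.02 within MS3005.

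Kif17, a kinesin that carries cargo along dendrites and cilia, was the only 1 of 18 motor and cytoskeleton genes to pass, and it did so downward. It stood at 6.00, 7.17 and 7.99 in MS2723 mutants, at 8.39 and 7.45 in MS3005 mutants and at 9.33 to 10.55 in controls. No mutant reached the lowest control (log2 difference -2.35 ± 0.44 SE, limma adjusted p = 0.394), and the MS3005 difference was -1.45.

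Among the named genes, 6 were past the thresholds both over all libraries and within MS3005, all of them downward. Both fits share the MS3005 libraries, and a call within MS3005 is not by itself evidence of a difference. Beside Mlf1, Il1r1, the receptor of interleukin-1, was at 7.49 to 8.41 in mutants and 9.22 to 9.83 in controls other than 48, which was at 8.15. C1s1, a complement protease gene, was at 5.63 to 6.97 in mutants and 7.01 to 7.69 in controls, and its lowest values were those of the MS3005 mutants. Fam81a was at 8.07 to 9.43 in mutants and at 9.46 or above in controls, and the transcripts Gm42433 (2.83 to 5.60 against 6.25 to 7.50) and D830039M14Rik (2.02 to 5.19 against 5.66 to 6.98) did not overlap either. D830039M14Rik is annotated as an antisense transcript, and reads from the gene on the other strand were not told apart from its own. Their MS3005 differences were -1.39, -1.62, -1.32, -1.18 and -2.23 in that order. Ctgf, a matricellular growth factor gene named after its values were seen, had a difference of -2.62 over all libraries and -1.87 within MS3005, but controls 45 and 48, at 10.54 and 10.17, were below or between mutants 167 and 191, at 10.34 and 10.73.

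**Figure D5:**
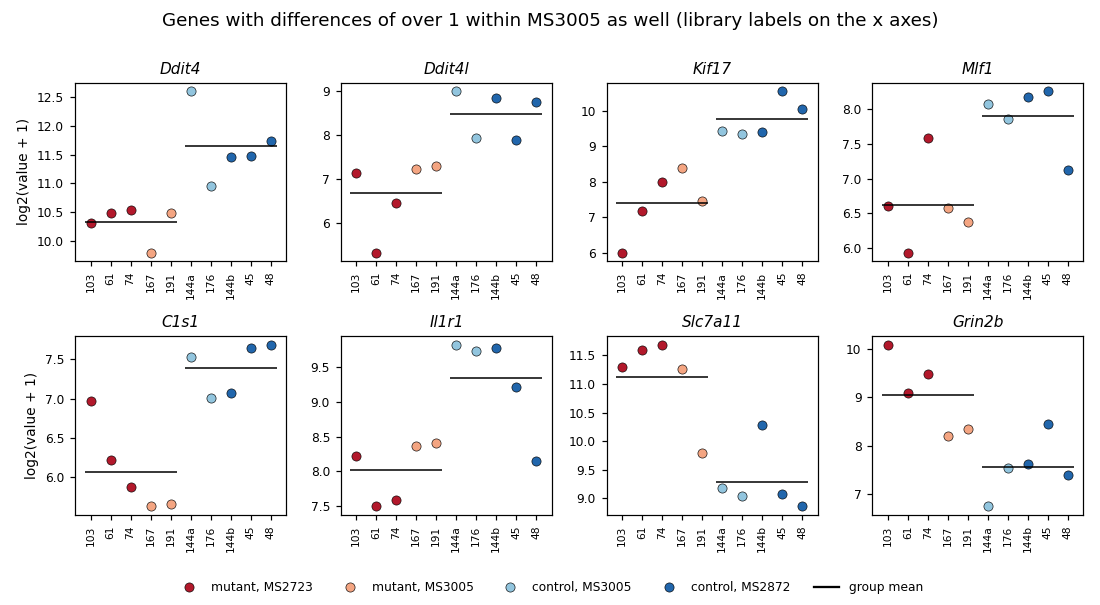
Each panel gives log2(value + 1) of 1 gene on the y axis for the 10 libraries on the x axis, coloured by genotype and submission, with a line at the mean of each genotype. For Ddit4, Ddit4l, Kif17 and C1s1 all mutants lie below all controls, and the MS3005 mutants lie apart from the MS3005 controls in all 8 panels, with differences in the means of -1.65 (Ddit4) to 1.42 (Slc7a11) and sizes of at least 1.14 (Grin2b).

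Promoter sequence was examined for letters bound by factors of these pathways, with 4 motifs chosen after the differences had been seen. RefSeq windows of 250 bases before the start (build GRCm38.p6) were at hand for 97 of the 137 lower and 23 of the 42 higher genes. The cAMP response element TGACGTCA was in 5 of the 97 windows of lower genes (5.15%), in 0 of the 23 of higher genes and in 1.77% of all 27025 genes with a window. The palindromic EBF motif was in 3 of 97 and 0 of 23, against 0.914% of all genes. The amino acid response element TGATGNAA, bound by ATF4, was in 0 of 97 and 1 of 23, against 3.91% of all genes, and the X-box motif of ciliary genes was in 0 of 97 and 1 of 23, against 0.444%. Matches on either strand were counted, and a match does not show that the site is bound. The single higher gene with the amino acid response element was Slc7a11, and Kif17 and Mlf1 were among the 5 lower genes with the cAMP response element. Their windows are printed because these 3 genes had differences of more than 1 log2 unit within MS3005 too, although of the 3 only Mlf1 passed the thresholds there, with the matched letters in capitals. The Slc7a11 window is chr3:50443614-50443863 on the minus strand and holds the element 2 times, once on each strand, with no overlap between the matches. The Kif17 window is chr4:138262001-138262250 and the Mlf1 window chr3:67373847-67374096, both on the plus strand.
Slc7a11: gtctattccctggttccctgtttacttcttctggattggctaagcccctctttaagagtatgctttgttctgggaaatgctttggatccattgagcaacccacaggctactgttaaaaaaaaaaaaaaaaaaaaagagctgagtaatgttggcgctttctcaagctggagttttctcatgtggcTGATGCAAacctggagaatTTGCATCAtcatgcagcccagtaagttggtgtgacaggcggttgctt
Kif17: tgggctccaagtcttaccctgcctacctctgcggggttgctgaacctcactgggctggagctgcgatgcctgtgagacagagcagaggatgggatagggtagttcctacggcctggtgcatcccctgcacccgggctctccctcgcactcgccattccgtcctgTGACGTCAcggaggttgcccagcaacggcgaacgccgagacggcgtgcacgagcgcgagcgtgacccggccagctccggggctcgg
Mlf1: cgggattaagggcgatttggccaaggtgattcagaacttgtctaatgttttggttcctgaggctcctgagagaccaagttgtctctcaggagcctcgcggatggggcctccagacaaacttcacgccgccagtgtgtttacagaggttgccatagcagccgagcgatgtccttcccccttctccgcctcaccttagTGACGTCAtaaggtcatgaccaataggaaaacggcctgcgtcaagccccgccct
The Kif17 window lies downstream of the start that GENCODE gives for the gene (chr4:138250435-138301967), so it belongs to an internal start.

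Among the largest increases were several pseudogenes and predicted transcripts. The pseudogene Gm15470 (3.88), Gm15852 (3.39) and Gm6297 (3.10) had the largest positive differences of the genes named here, and each was lowest in controls 45 and 48, where Gm15470 was at 0 and 1.12 against 4.01 to 6.10 in the other controls and 5.57 to 8.28 in mutants. Adamts7 (2.43), a matrix protease gene, the pseudogene Gm9333 (1.72) and Cd70 (1.89), a ligand of the tumor necrosis factor family, overlapped between genotypes. Reads of a processed pseudogene can come from its parent gene, and how the counting divided them was not examined. AU020206 (1.83) was at 6.44 to 7.49 in mutants and 3.55 to 6.18 in controls and did not overlap.

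Markers of other cell types passed in shares to be read against the same 14.5%. Of 12 microglial genes 1 passed, the chemokine gene Ccl12, which was higher by 1.53 over all libraries and by 1.69 within MS3005, where mutants 167 and 191 stood at 9.33 and 9.27 and controls 144a and 176 at 6.62 and 8.59. The median of the 12 was -0.00. Their sums ran from 14.10 to 14.86 in MS2723 mutants, were 15.33 and 15.17 in mutants 167 and 191, and ran from 13.86 to 15.86 in controls. Between the mutants of MS2723 and MS3005 the median difference of the 12 was -0.84, so lower values in MS2723 mutants were not confined to Purkinje markers. None of 5 oligodendrocyte lineage genes passed, the most abundant being Bcan (0.37 ± 0.26 SE, limma adjusted p = 0.563). The other 4 had differences below 0, and the median of the 5 was -0.32 over all libraries and -0.31 within MS3005. Per kilobase, Opalin of this list was at 9.06 to 9.75 in MS2723 mutants, 11.74 to 11.98 in MS3005 mutants and 10.03 to 11.72 in controls. Over the 5 genes the median difference between mutants of MS2723 and MS3005 was -0.25. Of 7 vascular and fibroblast genes, Ggt5 was lower (-1.67), and all 7 had differences below 0, with a median of -1.10 over all libraries and -0.28 within MS3005. Their sums were 11.38 to 13.99 in MS2723 mutants, 13.73 and 14.75 in MS3005 mutants and 13.15 to 14.59 in controls. Of 2 interneuron genes Lbx1 was lower (-1.93), and the median of the pair was -2.78 over all libraries and -1.82 within MS3005. No granule cell marker of the list was among the named loci, so granule cell RNA was not assessed.

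Genotype could be set beside submission in 2 further contrasts of a fit with 4 groups. The 3 mutants of MS2723 and the 2 mutants of MS3005 differed past the thresholds at 1066 loci (6.48%), 543 of them lower in MS2723, and 157 had an adjusted p under 0.05. The controls of MS2872 and MS3005 differed at 64 loci (0.389%), 18 lower in MS2872. No locus had an adjusted p under 0.05 in that contrast, and 542 had an unadjusted p under 0.05 (limma). Animal number 144 stood on both sides of the control contrast, as 144a in MS3005 and 144b in MS2872, and the fit treated them as separate. The 64 and the 1066 are therefore not like for like. Of the 242 loci that differed between genotypes, 52 were among the 1066, 47 of them lower both in mutants and in MS2723, and 1 was among the 64. Each contrast shares its libraries with the genotype fit, so agreement in direction between them is no independent check. Both counts moved with single libraries: the 1066 became 453 without mutant 167, and the 64 became 666 without control 144b and 102 without control 144a. Among Purkinje markers 14 of 25 were called in the first contrast and 0 in the second, and the shares of all named loci in these contrasts were not counted. The difference between mutant submissions was -3.00 for Pcp2 (limma adjusted p = 0.0802) and -2.58 for Calb1, but 0.31 for Ddit4, 0.23 for Mlf1 and 0.71 for C1s1.

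Correlations between libraries over the 16455 loci described the same arrangement. The MS3005 mutants correlated on average at r = 0.942 with the MS3005 controls and at 0.869 with the MS2723 mutants, and the 4 MS3005 libraries ranged from 0.923 to 0.957 among themselves. Controls 45 and 48 stood apart from all libraries, with no correlation above 0.841 and 0.892, and correlated at 0.834 with each other, whereas control 144b of the same submission reached 0.936 to 0.964 with the MS3005 libraries. Without controls 45 and 48 the number of loci past the thresholds was 157, of which 53.5% were lower.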

How the data were processed

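Total RNA of sorted Purkinje cells was made into full-length cDNA libraries (SmartSeq v4) and sequenced as read pairs. Per the labels and the study's methods, the authors used Trimmomatic 0.39, STAR 2.7.0f and Cufflinks 2.2.1 with GRCm38, and deposited a table of normalized counts (signal) for each locus. The other deposited table, of ribosome-tagged RNA, was not used here. Estimated fragments were the total of a library divided by its most frequent low value, of which low values were whole multiples in 83.5% to 86.4% of cases (tolerance 0.02).

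The values were analysed as log2(value + 1) with limma 3.58.1 (R 4.3.3), after a filter at a mean of 5 over the libraries in each fit, at p under 0.01 and 2-fold change with Benjamini-Hochberg adjustment beside it, as the study's methods state the thresholds. Log2 differences of low loci are understated on this scale. The labels do not say whether libraries came from separate animals other than by animal number, so p-values measure the spread between libraries. The study's text gives fewer libraries per genotype than the labels, and all labelled libraries entered. Depth was compared by exact permutation tests, whose smallest p was 0.00794. On simulated data with 200 loci changed 4-fold among 16455, the fit of all libraries recovered 181 and that of MS3005 recovered 128, with 88 and 166 unchanged loci called. The simulated libraries were independent and held no difference between submissions. For each locus they shared a single spread, pooled over the groups of genotype and submission, so the spread of MS3005 itself was not simulated. The simulation therefore does not show how the fit of all libraries behaves when submission is unbalanced over genotype.

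Locus names came from the study's supplementary files (identifiers only; their columns of fold changes and p-values were not used) and coordinates from GENCODE M21. Loci named there as matching or sharing a junction with a reference transcript could be named in the text: the 8 largest decreases and increases, up to 8 members of each of 15 gene lists, and up to 10 loci past the thresholds in both fits. Pcp2, Calb1, Car8, Gad2, Aldoc, Plcb3, Apoe, Gfap, C1qc, Inpp4a, Ctgf and Opalin were added outside this rule. Some genes that the rule selects are not reported here. The comparison and the gene lists were chosen with earlier results of these data known. Alternatives covered pseudocounts, filters, scaling, an intensity trend, submission as a term, single libraries left out and limma-voom on estimated fragments, and 3 were added after seeing the data (controls 45 and 48 left out, MS3005 mutants against all controls, and depth with 144a and 144b averaged). Python 3.11.15 was used for summaries and plots.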

Additional observations from a re-analysis of the deposited data

Results flagged for a closer look

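In 9 of the 168 groups of 5 libraries examined, over the named genes and the depth measures, the highest or lowest library stood apart from its genotype by a gap of more than 0.71 of the group's range. About 1 group in 20 is expected to do so by chance, which is close to this count. Mutant 61 was at 3.26 for 8430408G22Rik, where the next mutant was at 6.75. Mutant 191 was at 9.80 for Slc7a11 and the next at 11.27, and control 144b at 10.28 with the next control at 9.19, so 1 library of each genotype lay toward the other genotype. Control 176 was the lowest control for Slc5a1 (7.77, next 8.72), Slc1a6 (11.37, next 12.31) and Plcb3 (11.82, next 12.34). Control 48 was lowest for Errfi1 (11.14, next 11.71) and highest for Lbx1 (8.77, next 6.74). Control 45 was at 16.44 for Apoe, where the next control was at 17.56.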

How the results depend on the processing

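The number of loci past the thresholds (242, with 73.1% lower and 122 without overlap between genotypes) kept within 1.5 times under both pseudocounts, a mean of at least 7, quantile normalization, equal totals, an intensity trend, limma-voom and the mean of controls 144a and 144b, and the share lower went to 62.7% with equal totals and 66.7% with that mean. With no filter on low values the counts were 702 loci past the thresholds, 32.1% of them lower, and 261 without overlap, since 510 of them lay below the filter. The same setting gave 631 loci within MS3005, 2352 between the mutants of the 2 submissions and 366 between the controls. With submission as a term, 33 loci passed (57.6% lower, 7 without overlap), with MS3005 only, 100 (56% lower), with the MS3005 mutants against all controls, 57 (78.9% lower, 57 without overlap), and without controls 45 and 48, 157 (53.5% lower). The cause of these shifts was not tested. With a mean of at least 7, 61 loci passed within MS3005 and 27 between controls, and with an intensity trend 40 and 34. Without both 144 libraries 512 loci passed between controls. Leaving out single libraries gave 104 (without mutant 61) to 530 (without mutant 167) loci past the thresholds, 51.7% (without control 45) to 86% (without mutant 103) of them lower, and 82 (without mutant 61) to 319 (without mutant 167) without overlap. It gave 106 to 210 (without mutant 191) within MS3005, 453 (without mutant 167) to 1392 between mutants and 51 to 666 (without control 144b) between controls. The difference in fragments ranged from -18.9 to -10.1 M (smallest exact p = 0.0159, without mutant 191), and that in the share of the 10 highest loci from 0.933 to 1.71 percentage points (exact p = 0.00794 to 0.0952). With 144a and 144b averaged the latter was 1.31 points (exact p = 0.0714).

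Of 72 named genes past the thresholds, 25 passed in every fit that left out a library and still tested them, among them Itpr1, Slc1a6, Homer3, Ddit4, Ddit4l, Kif17, Mlf1, C1s1, Slc7a11 and Tnc. With submission as a term 1 of the 72 passed, and within MS3005 6 of the 70 tested there. Some signs reversed, and Spata1 was the gene past the thresholds among them. With submission as a term and within MS3005, the differences were -0.21 for Bcan, -0.024 for Spata1, 0.30 for Pcp2 and -0.34 for Apoe. Aldoc was at 0.047 with equal totals, 0.051 with limma-voom and 0.084 with the mean of the 144 libraries, and ranged from -0.11 to 0.095 when single libraries were left out. Apoe ranged from -0.014 (without control 45) to 0.37 when single libraries were left out, and was at -0.048 without controls 45 and 48 and at -0.030 for the MS3005 mutants against all controls, where Pcp2 was at 0.013 and C1qc at 0.11. Gfap was at 0.046 without controls 45 and 48. No paired analysis was possible because the sorted libraries share no replicate number across genotypes.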

Other observations

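The mitochondrial ribosomal RNA mt-Rnr2, which every cell contains, was listed at exactly 0 in 7 of the 10 libraries and at 19.56 and 19.52 on the log2(value + 1) scale in mutants 167 and 191, with a higher value still in mutant 61. It was the single locus with an adjusted p under 0.05 within MS3005 (limma), where 561 loci had an unadjusted p under 0.05, and it is not read as a difference in expression. Of 5043 tested loci with a value above 12 on that scale in some library, 13 were listed at 0 in at least 1 other, and none of these 13 was past the thresholds over all libraries. Of the 242 loci past the thresholds, 2 had a 0 in some library, Kcna5 and Gm15470.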
